A study of Drosophila melanogaster with 22 samples.

Results

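The genes described here are those whose RNA was at least 2-fold more abundant in heads of RluA-2 mutant flies than in heads of w1118 flies. They were chosen by the mock-treated libraries of Exp 2, as the genes for which the log2 of (mean RluA-2 CPM + 0.5) over (mean w1118 CPM + 0.5) was 1 or more and the lowest RluA-2 library lay above the highest w1118 library. CPM is a gene's read-pair count scaled to a library total of 1000000 counts. Of 17101 gene IDs in the count tables, 95 met both conditions. The eye colour gene w and the glucosidase gene tobi were left out, which left 93 members.

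All libraries came from heads of 1 day old virgin females, with 100 heads per RNA sample. The w1118 flies are an isogenic white-eyed strain and serve as the control, and the RluA-2 flies were homozygous for RluA-2 del-FRT, a deletion of the RluA-2 locus. Exp 1 holds 3 RNA samples of w1118, and Exp 2 holds 4 of w1118 and 4 of RluA-2. Each RNA sample was split after poly(A) selection into a library treated with CMC and a mock-treated library, which gives 22 libraries. The deleted gene was not given a count row by the naming described below, so it was checked by the read ends, or terminations, listed within its span in the mock libraries. Mock ends are listed only at positions where the CMC library of the pair has one. These amounted to 0.610 ± 0.060 per 1000000 gene counts (SD, n = 4) in w1118 of Exp 2 and to 0.073 ± 0.065 (SD, n = 4) in RluA-2 (p = 0.0286 by a two-sided exact permutation test over samples, which can give no smaller value at this n). In the CMC libraries the ends came to 6.43 ± 1.04 (SD, n = 4) in w1118 of Exp 2 and 1.315 ± 0.541 (SD, n = 4) in RluA-2. The RluA-2 mean was 20.5% of w1118 with CMC and 12.0% with mock treatment. Of the CMC ends left in RluA-2, 93 of 108 lay in the first of 10 equal parts of the span. That part held 69 of 485 in w1118 of Exp 2, so the fall lay in the rest of the span.

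RluA-2 encodes a pseudouridine synthase, an enzyme that isomerises uridine to pseudouridine within RNA. CMC binds pseudouridine and stops reverse transcription beside it, so that CMC and mock libraries of one sample read the same RNA pool with different stops. A fly head contains brain, eyes, muscle and fat body, and the fat body secretes immune peptides such as Drosomycin and the Bomanins when the Toll pathway is active. The members were not chosen for any such function, and they are described below by what is known of them.

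The tables name genes by ID only. A symbol was given where the 11 CMC counts of an ID matched the CMC terminations within the span of 1 annotated gene and no other. This was so for 55 members, and it is an inference from the counts. A further 7 members matched spans that overlap and are given with both names, and 31 matched no span well enough and are counted without a name. Of the IDs whose symbol was known from elsewhere, 48 were given a span, 47 of them the right one. Under a stricter assignment Drsl4, CG13794, CG3552 and CG15553 lost their names, and their values belong to IDs whose symbols are less certain.

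The mean level of the members in the RluA-2 mock libraries ran from 0.579 to 482 CPM, with a median of 8.76. In the w1118 mock libraries of Exp 2 it ran from 0 to 194 CPM, with a median of 1.49. The log2 ratio that chose the members had a median of 1.35. It was 2 or more for 21 members, 3 or more for 10 and above 6 for CG32523 or Mnr, mthl8 and Map205. Most members were therefore low in w1118, and by this ratio near the lower limit of the rule, with a short list above them. The offset of 0.5 CPM shrinks the ratio where levels are low. In the edgeR quasi-likelihood fit of the same mock libraries, the median log2 difference was 2.07 over the 88 tested members. That fit gave 6.18 ± 0.67 (SE) for CG7173 and 4.89 ± 0.53 (SE) for CG5096, whose ratios were 1.74 and 1.35. Over all w1118 mock libraries of Exp 2, CG7173 had 1 count and CG5096 had 2, so the sizes of these differences are uncertain. For the abundant UGP the fit gave 1.71, beside a ratio of 1.67. Just inside that limit stood CG11349 with a log2 ratio of 1.02 and a pair of unnamed IDs with ratios near 1.00. Just outside stood CG43783 with 0.9993, an unnamed ID with 0.996 and FASN3 with 0.993.

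**Figure D1:**
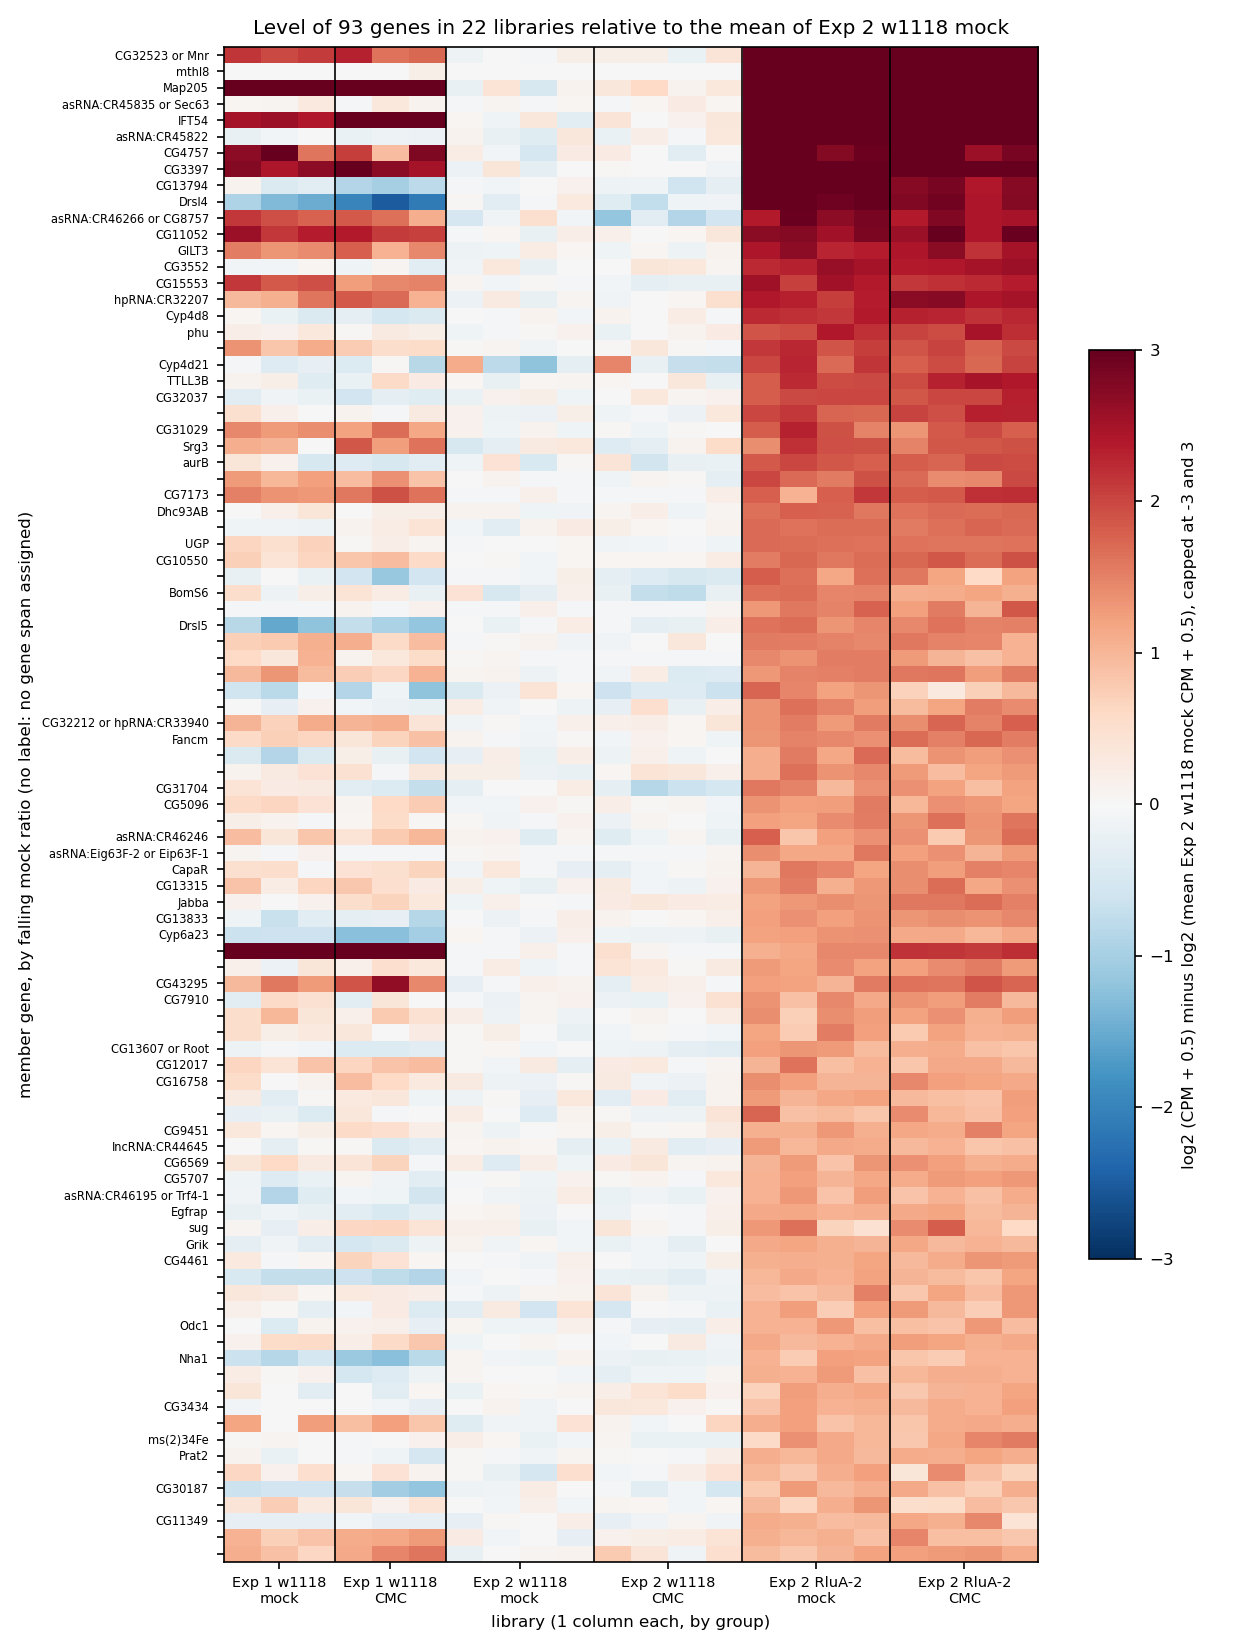
Each row is 1 of the 93 genes and each column 1 of the 22 libraries, coloured by log2 (CPM + 0.5) minus the log2 of the Exp 2 w1118 mock mean + 0.5 and capped at -3 and 3. The RluA-2 mock columns are red in every row by the choice of genes. The RluA-2 CMC columns were not used in that choice but come from the same RNA samples. The Exp 1 w1118 columns are red in some rows and pale or blue in others.

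The member with the highest ratio matched both CG32523 and Mnr, genes that overlap on X (positions 21217878 to 21218835 for CG32523, release 6 of the genome). Its mock CPM was 1.11, 1.25, 1.25 and 1.5 in w1118 of Exp 2, 6.55 to 7.35 in Exp 1, and 168, 142, 162 and 178 in RluA-2. The RluA-2 mean of 162 ± 15.3 (SD, n = 4) was 127-fold the w1118 mean of Exp 2. The 3 groups did not overlap, and the Exp 1 flies stood far nearer to the w1118 flies of Exp 2 than to the mutant. Since the spans overlap, the match of counts to spans could not tell these genes apart.

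mthl8, of the Methuselah-like family of G protein-coupled receptors, lies near the tip of 3L (22428 to 26308, forward strand). It had no count in any of the 7 w1118 mock libraries and 37.4, 40.4, 44.8 and 48.2 CPM in the RluA-2 mock libraries. Against a floor of 3 counts summed over the 4 w1118 libraries of Exp 2, the RluA-2 level was at least 1193-fold higher. In the CMC libraries it had 0 counts in w1118 of Exp 2, 1 count in w1118 of Exp 1 and a mean of 41.2 ± 4.1 CPM (SD, n = 4) in RluA-2. The CMC terminations of the RluA-2 libraries lay in each of 10 equal parts of the span, 2958 in sum, whereas neither w1118 group had any. This was the only member without a count in all 4 w1118 mock libraries of Exp 2.

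Map205 encodes a microtubule-associated protein that also binds the kinase Polo, and it lies on 3R (32055279 to 32068441, reverse strand). Its mock CPM was 0.293, 0.732, 0.166 and 0.5 in w1118 of Exp 2, against 62.6, 54.5, 64.4 and 56.4 in RluA-2. In w1118 of Exp 1 it was 21.6, 29.4 and 28.2. Flies carrying the w1118 label thus differed between the experiments by more than the spread within either, and Exp 1 lay below every RluA-2 library. The position of the reads differed too. In the CMC libraries of Exp 2 w1118, 1 of 50 terminations fell in the first 5 of 10 equal parts of the span and none in the first 4. In Exp 1 w1118 the first 5 parts held 36.3% of 1014 terminations, and in RluA-2 they held 48.7% of 4416. The 50 terminations of Exp 2 w1118 came from all 4 libraries, which had 12, 20, 8 and 10.

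IFT54, a subunit of the intraflagellar transport complex that builds cilia, followed the same order (3R, 14302428 to 14304458). Its mock CPM was 1.95, 1.67, 2.49 and 1.36 in w1118 of Exp 2, 12.8, 13.6 and 12.0 in w1118 of Exp 1, and 24.8, 26.6, 31.0 and 30.2 in RluA-2. The 3 groups did not overlap. CG4757 had 5.24 to 9.13 CPM in w1118 of Exp 2 and 54.7, 62.1, 70.2 and 132 in RluA-2, and the Exp 1 values of 51.5, 76.1 and 24.1 reached into the RluA-2 range. CG3397 had 2.41 to 3.97 CPM in w1118 of Exp 2, 18.3 to 23.1 in Exp 1 and 28.3 to 36.0 in RluA-2. CG11052 had 1.08 to 1.64, 7.59 to 10.4 and 10.2 to 12.7 CPM in the same order, with Exp 1 and RluA-2 overlapping. For these genes every mock library of w1118 of Exp 1 lay above those of w1118 of Exp 2, and the rule took genes that were low in the latter. For IFT54 and CG3397, Exp 1 also lay below every RluA-2 library. The part of the experiment in these differences was not tested.

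**Figure D2:**
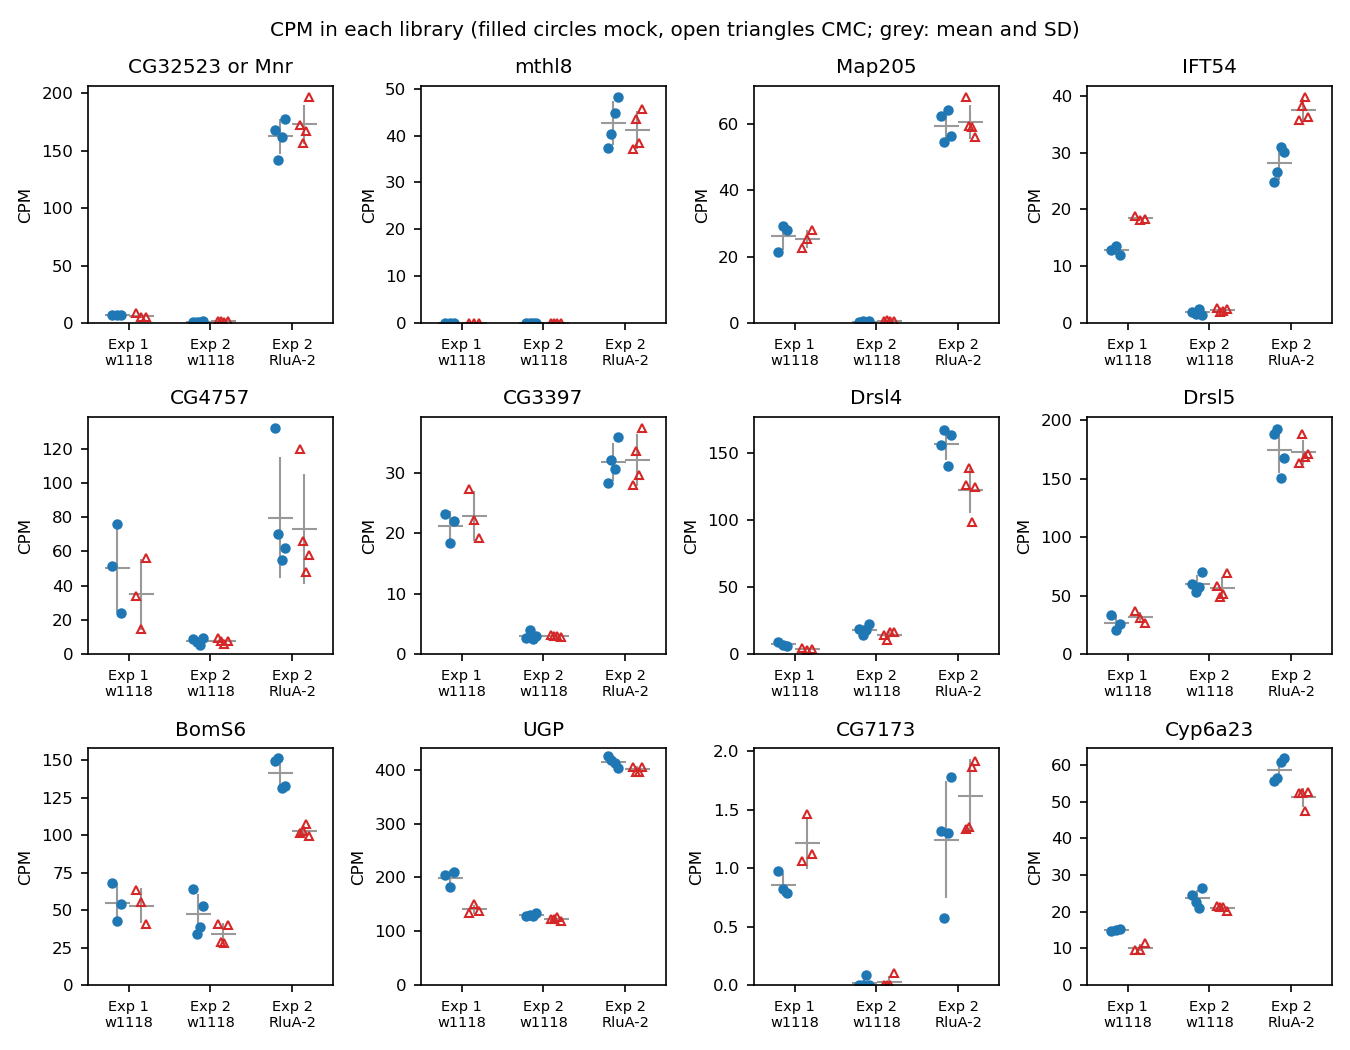
CPM (vertical axis, starting at 0) of 12 members in each library, by group, with mock libraries as filled circles, CMC libraries as open triangles and the mean and SD in grey. mthl8 is at or near 0 in both w1118 groups, Map205 and IFT54 are intermediate in Exp 1, and Drsl4 and Drsl5 are lowest in Exp 1.

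Further members have roles in cilia, but no list of cilia genes was examined, and these members were picked after their values were seen. Dhc93AB, an axonemal dynein heavy chain, had 4.07 to 4.92 CPM in w1118 of Exp 2, 4.43 to 5.93 in Exp 1 and 14.5 to 16.8 in RluA-2. TTLL3B, a tubulin glycylase of the same cellular context, had at most 0.182 CPM in w1118 of Exp 2, at most 0.218 in Exp 1 and 1.77 to 2.55 in RluA-2. Unlike for IFT54, the w1118 ranges of the experiments overlapped for both.

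Other members with a high ratio had w1118 levels of Exp 1 and Exp 2 that lay together. asRNA:CR45822, an antisense RNA on 3L, had at most 0.318 CPM in any w1118 mock library and 7.68, 5.83, 4.77 and 6.01 in RluA-2. The member that matched asRNA:CR45835 or Sec63 had at most 0.143 CPM in w1118 and 6.02 to 7.39 in RluA-2. CG13794 had 3.35 to 3.91 CPM in w1118 of Exp 2, 2.51 to 3.84 in Exp 1 and 31.9 to 36.7 in RluA-2. In these members the w1118 ranges of the experiments overlapped, and the RluA-2 libraries stood alone. CG3552 was of this kind as well, at 2.24 to 3.50 CPM in w1118 of Exp 2, 2.53 to 2.86 in Exp 1 and 14.8 to 19.2 in RluA-2.

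Among immune genes, Drsl4 and Drsl5 encode relatives of the antifungal peptide Drosomycin and are neighbours on 3L, 839 bases apart. The mock CPM of Drsl4 was 18.4, 14.1, 17.7 and 22.1 in w1118 of Exp 2 and 156, 167, 140 and 163 in RluA-2, an 8.66-fold difference of means. In Exp 1 it was 9.29, 6.88 and 6.15, below every w1118 library of Exp 2. Drsl5 had 52.8 to 70.1 CPM in w1118 of Exp 2, 20.5 to 33.4 in Exp 1 and 151 to 193 in RluA-2. Both genes were thus lowest in Exp 1 and highest in the mutant. The gene of Drosomycin itself, Drs, was not a member. Its mean was 79.3 ± 35.4 CPM (SD, n = 4) in w1118 of Exp 2 and 53.7 ± 45.9 (SD, n = 4) in RluA-2. These libraries overlapped, at 48.3 to 121 and 23.1 to 121 CPM, and Exp 1 had 45.5 to 68.9. BomS6, a short Bomanin, had 63.7, 33.9, 38.6 and 52.9 CPM in w1118 of Exp 2, 42.8 to 68.3 in Exp 1 and 149, 152, 131 and 133 in RluA-2, and the w1118 groups overlapped. GILT3, of the lysosomal thiol reductase family, had 0.912 to 1.33, 3.44 to 4.09 and 7.22 to 9.61 CPM in w1118 of Exp 2, w1118 of Exp 1 and RluA-2.

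Other members of these families were read from the edgeR quasi-likelihood test of the mock libraries, whose contrast also chose the members. Over all genes in that test, 11.1% were called higher and 12.6% lower, and the lists of genes below are to be read beside these shares. Of 12 Bomanins tested, 5 rose and none fell in RluA-2 at an adjusted p under 0.05, with a median log2 difference of 0.32. BomS6 is 1 of the 5. Of 13 antimicrobial peptide genes tested, 1 rose, which was Drsl5, and 4 fell, with a median of -0.52. Drsl4 was not in that list. The median over all 10161 genes tested was 0.0043.

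Members of metabolism were among the most abundant. UGP, which makes UDP-glucose, had 128, 130, 129 and 135 CPM in w1118 of Exp 2 and 425, 418, 412 and 404 in RluA-2, a 3.18-fold difference of means, with Exp 1 between them at 182 to 210. Prat2, which catalyses the first step of purine synthesis, had 138 to 159 CPM in w1118 of Exp 2, 129 to 160 in Exp 1 and 291 to 329 in RluA-2. Odc1, the ornithine decarboxylase of polyamine synthesis, had 51.4 to 62.1, 42.3 to 60.2 and 104 to 139 CPM. In Prat2 and Odc1 the w1118 groups lay together and the mutant apart. Jabba, a lipid droplet protein that anchors histones, had 64.3 to 78.1 CPM in w1118 of Exp 2, 69.4 to 77.3 in Exp 1 and 164 to 187 in RluA-2. sug, a zinc finger factor that responds to dietary sugar, spread widely within RluA-2, at 126, 161, 81.3 and 69.8 CPM against 43.2 to 56.0 in w1118 of Exp 2. The list of insulin and starvation genes had 5 tested genes, of which 3 rose, sug among them, and none fell, beside 11.1% and 12.6% of all genes, with a median log2 difference of 0.19. In the CMC libraries 2 rose.

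Among the members were 3 cytochrome P450 genes, which encode oxidases of lipids, hormones and foreign compounds. Cyp4d8 had 2.04 to 2.41 CPM in w1118 of Exp 2, 1.5 to 2.33 in Exp 1 and 11.4 to 13.6 in RluA-2. Cyp4d21 had 4.50, 0.837, 0.498 and 1.36 CPM in w1118 of Exp 2 and 6.93 to 10.7 in RluA-2, with replicate 1 of w1118 far above the other replicates. Cyp6a23 had 21.0 to 26.3 CPM in w1118 of Exp 2, 14.8 to 15.2 in Exp 1 and 55.6 to 61.9 in RluA-2. Of the 44 P450 genes tested, 6 rose, the 3 members among them, and 22 fell in RluA-2, beside 11.1% and 12.6% of all genes, with a median log2 difference of -0.21.

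Cyp6a23 lies on 2R only 89 bases from Cyp6a17, a close paralog on the same strand. Cyp6a17 had a mean mock level of 81.2 CPM in w1118 of Exp 2, 72.0 in Exp 1 and 1.82 in RluA-2. In the CMC libraries, the 1 kb before the start of Cyp6a23 held 2067 terminations in w1118 of Exp 2, 1050 in w1118 of Exp 1 and 18 in RluA-2. Cyp6a17 lies in that stretch, so the higher level of Cyp6a23 went along with few reads from its neighbour. Only uniquely aligned read pairs were counted, so pairs from stretches that the paralogs share exactly enter neither count, and the level of Cyp6a23 is uncertain to that extent. The part of its neighbour in the difference was not tested.

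**Figure D3:**
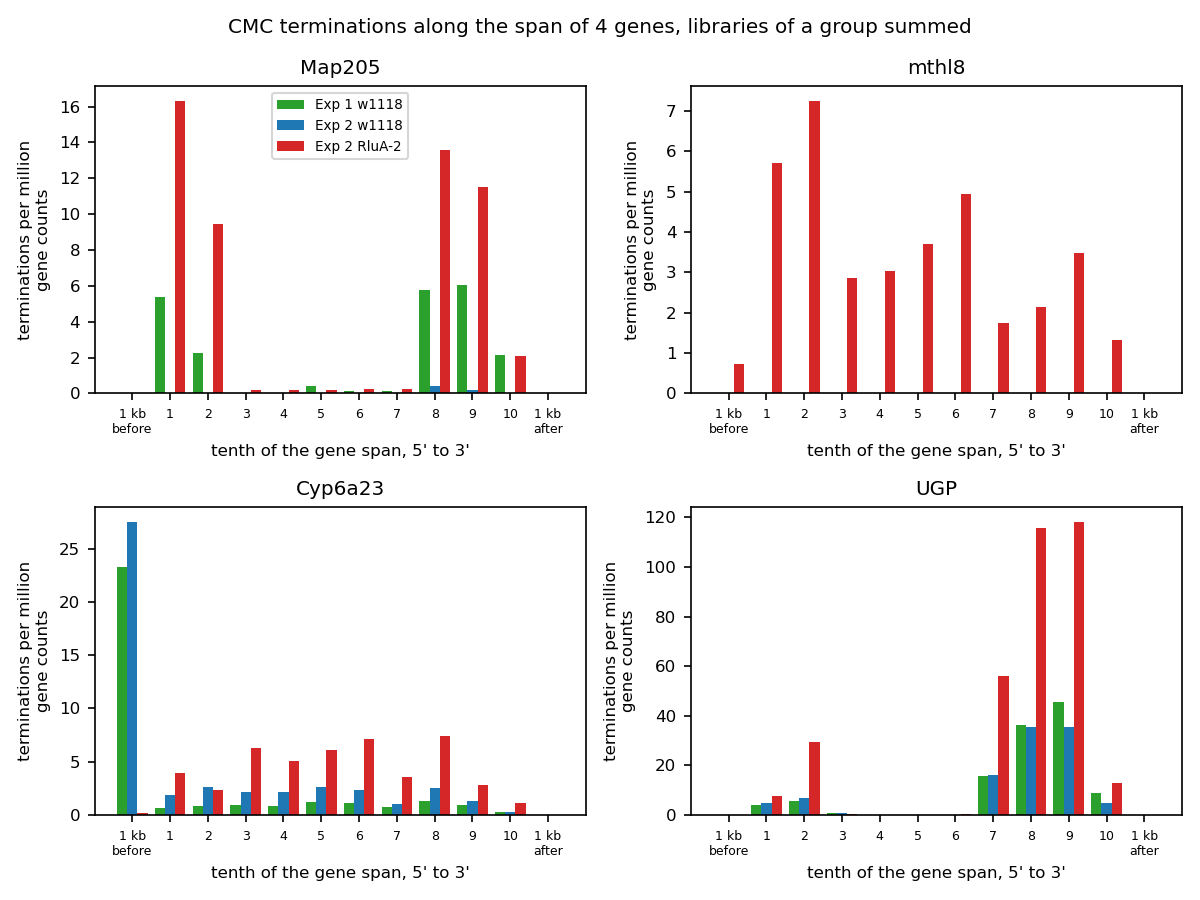
CMC terminations per 1000000 gene counts (vertical axis) in the 1 kb before the span, 10 equal parts of the span from 5′ to 3′ and the 1 kb after it, for Map205, mthl8, Cyp6a23 and UGP, with the libraries of a group summed. Map205 has 0 terminations in its first 4 parts in Exp 2 w1118, and Cyp6a23 has 18 upstream terminations in RluA-2 against 2067 in Exp 2 w1118.

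Antisense RNAs with 1 span included asRNA:CR45822 and asRNA:CR46246. The latter had at most 0.209 CPM in w1118 of Exp 2, 0.328 to 0.730 in Exp 1 and 0.657 to 1.73 in RluA-2. Of 20 antisense RNAs tested, 8 rose, both of these members among them, and 2 fell, beside 11.1% and 12.6% of all genes, with a median log2 difference of 0.37. lncRNA:CR44645 was the only member with 1 span from the list of long noncoding RNAs, of which 8 rose and 4 fell among 42 tested, beside the same shares of all genes. It had 3.00 to 4.08 CPM in w1118 of Exp 2, 3.00 to 3.86 in Exp 1 and 7.89 to 9.73 in RluA-2.

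The most abundant member was CG13315, at 407 to 567 CPM in RluA-2, 166 to 220 in w1118 of Exp 2 and 225 to 353 in Exp 1, which lay between the other groups without overlap. CG10550 had 37.2 to 41.0 CPM in w1118 of Exp 2, 53.0 to 65.0 in Exp 1 and 116 to 131 in RluA-2, without overlap. Grik, a glutamate receptor subunit of the kainate class, had 10.2 to 11.9, 8.51 to 10.2 and 22.6 to 25.6 CPM in w1118 of Exp 2, w1118 of Exp 1 and RluA-2. Fancm, a helicase of the Fanconi anaemia repair pathway, had 4.99 to 5.83, 8.22 to 9.17 and 14.2 to 16.0 CPM in the same order, with Exp 1 between the other groups.

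No member was in the marker lists of neurons, photoreceptors, glia, muscle, fat body or hemocytes, and no gene of the gut, ovary or testis lists had been given a span. The 8 photoreceptor markers with a span summed to between 24160 and 29080 CPM in every group of mock libraries, and 3 of them fell in RluA-2 and none rose. The 3 glia markers summed to between 2098 and 2214 CPM in w1118 of Exp 2, between 1838 and 1970 in RluA-2 and between 1468 and 1572 in w1118 of Exp 1, without overlap, and 1 of them fell in RluA-2. The 2 hemocyte markers summed to between 183 and 197 CPM in w1118 of Exp 2, between 168 and 204 in RluA-2 and between 58.4 and 81.1 in w1118 of Exp 1. The 5 fat body markers summed to between 52130 and 56530 CPM in w1118 of Exp 2, between 59140 and 66730 in RluA-2 and between 42740 and 47990 in w1118 of Exp 1. Of these 5, 3 rose and 1 fell in the mock libraries of RluA-2, beside 11.1% and 12.6% of all genes, and 1 rose and 1 fell in its CMC libraries, beside 8.8% and 12.3%. The part of the glia, hemocyte, photoreceptor and fat body markers in the members' levels was not tested, and a different share of cells and a different amount of RNA per cell cannot be told apart in such libraries.

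The position of a gene was not used to choose it. Of the 55 members with 1 span, 24 lay on 3L, 16 on 3R, 8 on 2L and 7 on 2R. None lay on X, although 974 of the 5775 IDs with 1 span did, or 16.9%. 3L held 43.6% of these members and 18.4% of all IDs with 1 span. The member matched to CG32523 or Mnr and the one matched to asRNA:CR46195 or Trf4-1 lay on X but are not in these counts because their spans overlap. RluA-2 itself is on 2L, and within 500 kb of it 2 of 95 IDs with 1 span were members, CG5096 and aurB. This is 2.1%, beside 0.95% of all IDs with 1 span, and a count of 2 is too small to be read as a difference. CG5096 had at most 0.0831 CPM in w1118 of Exp 2, 0.215 to 0.328 in Exp 1 and 0.739 to 1.07 in RluA-2. aurB, the Aurora B kinase of the chromosomal passenger complex, had at most 0.575 CPM in w1118 of Exp 2, 0.0715 to 0.535 in Exp 1 and 2.29 to 2.71 in RluA-2.

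Members also lay near each other. With a gap of up to 150 kb, 24 of the 55 members fell into 9 runs. The longest run covered positions 9350867 to 9598375 of 3L and held UGP, CG4461, Srg3, CG3552, CG3434, CG32037 and asRNA:CR46246, which were 7 of the 24 IDs with 1 span there. This is 29.2%, beside 2.25% on 3L as a whole, but a run begins and ends at members, which raises its share. CG4461 had 41.8 to 49.5 CPM in w1118 of Exp 2 and 93.8 to 102 in RluA-2. CG32037 had a mean of 3.05 ± 0.46 CPM (SD, n = 4) in w1118 of Exp 2 and 13.2 ± 0.9 (SD, n = 4) in RluA-2. CG3552 and CG3434 meet at their ends on opposite strands, and CG3434 had 7.06 to 8.26 CPM in w1118 of Exp 2 and 14.4 to 18.7 in RluA-2. The gap was set after the positions were seen, so the runs are a description.

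CapaR, the receptor of the Capa neuropeptides, and its neighbour CG7173 formed another run, 748 bases apart on 3L. CG7173 was detected in 1 of 4 w1118 mock libraries of Exp 2, at 0.0831 CPM, and had 0.786 to 0.973 CPM in Exp 1 and 0.575 to 1.78 in RluA-2. CapaR had 0.364 to 0.784, 0.501 to 0.983 and 1.59 to 2.55 CPM. The order of the groups therefore differed between these neighbours, with Exp 1 inside the RluA-2 range for CG7173 and overlapping w1118 of Exp 2 for CapaR.

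CMC libraries were not used to choose the members, but they came from the same RNA samples and so do not add flies. In them, the lowest RluA-2 library lay above the highest w1118 library of Exp 2 for 92 of the 93 members, against 9.01% of all genes that passed the filter on low counts, and the ratio was 2-fold or more for 82. The exception, FBgn0266741, matched no span. In the mock libraries, where this order is part of the rule, 9.75% of genes that passed the filter had it. The edgeR quasi-likelihood test called 88 of 88 tested members higher in the CMC libraries of RluA-2, where 8.8% of all tested genes were called higher. In the mock libraries it called 88 of 88, beside 11.1% of all genes, and the same values chose the members. Nothing can be read from either count, since the CMC libraries are splits of the RNA samples that chose the members, and a member such as mthl8, at 0 counts in the w1118 libraries of Exp 2, can pass the filter only through RluA-2. In each case 5 members were too low to be tested. The median log2 difference was 1.95 over the tested members in the CMC libraries and -0.0053 over all genes.

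For single members, the CMC libraries gave an edgeR log2 difference of 1.72 ± 0.05 (SE) for UGP and of 3.10 ± 0.13 (SE) for Drsl4, with the SE derived from the test statistic. Cyp4d21 had one of the wider errors, at 1.83 ± 0.40 (SE). These are given as sizes without p-values, since mock libraries of the same RNA samples chose the genes. BomS6 had a mean of 103 ± 3.4 CPM (SD, n = 4) with CMC and 141 ± 10.6 (SD, n = 4) with mock treatment in RluA-2, beside 34.3 ± 7.06 and 47.3 ± 13.6 (SD, n = 4) in w1118 of Exp 2.

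Exp 1 had no part in the choice of members, so its 3 pairs show how CMC treatment alone moved them in w1118. With the RNA sample as a block, edgeR called 5 of 68 tested members higher with CMC, or 7.35%, and 12.4% of all genes. It called 10 members lower, or 14.7%, and 12.6% of all genes. Drsl4 had the largest fall, at -1.07 ± 0.17 on the log2 scale (SE, adjusted p = 0.0092, edgeR), followed among called genes with a symbol by CG31704 at -0.89, CG13794 at -0.84, CG15553 at -0.66, Cyp6a23 at -0.58 and UGP at -0.52. Among the genes called higher, CG43295 rose by 0.97 ± 0.29 (SE, adjusted p = 0.049), IFT54 by 0.51 ± 0.09 (SE, adjusted p = 0.012), sug by 0.54, Jabba by 0.42 and CG16758 by 0.36. These counts depended on single pairs. Without replicate 1 of Exp 1, edgeR called 0 of 67 tested members higher, with 11 at an unadjusted p under 0.05 in either direction, and 1 lower. Without replicate 2 it called 16 lower, and without replicate 3 it called 10 higher.

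The w1118 libraries of Exp 1 were then set beside the other groups. They were prepared in another experiment than the RluA-2 libraries, so experiment and genotype cannot be told apart in that comparison. All 3 mock libraries lay below the lowest RluA-2 library for 80 members, or 86.0%, where 21.1% of all genes that passed the filter did. The rule took genes that were high in these same RluA-2 libraries, so nothing can be read from that difference in shares. For 12 members the ranges overlapped, and for FBgn0032187, which matched no span, Exp 1 lay above. This ID had 7.69, 8.35 and 7.29 CPM in w1118 of Exp 1, 0.591 to 0.917 in RluA-2 and at most 0.0831 in w1118 of Exp 2.

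Against w1118 of Exp 2, all 3 Exp 1 mock libraries lay above the highest for 36 members, or 38.7%, and 14.6% of all genes did so. They lay below the lowest for 7 members, or 7.53%, and 26% of all genes did so. The 7 included Drsl4, Drsl5, Cyp6a23, Nha1 and CG30187. Because the rule took genes that were low in these w1118 libraries of Exp 2, the counts are not independent of the choice. Of the 36, 24 still lay below every RluA-2 library, while 12 did not. Named genes of the latter kind were CG4757, CG11052, CG15553, CG7173, CG43295 and asRNA:CR46246.

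The CMC libraries of w1118, which share RNA with the mock libraries, gave a count by test. edgeR called 35 of 67 tested members higher in Exp 1 than in Exp 2, or 52.2%, and 19.9% of all genes. It called 10 lower, or 14.9%, and 22% of all genes. Nothing can be read from these shares against those of all genes, since the members were chosen for low levels in the same RNA samples of Exp 2, and a member such as CG7173, with a mean CMC level of 0.0251 CPM in Exp 2 and 1.21 in Exp 1, can pass the filter only through Exp 1. The same choice bears on single members, so their differences are given without p-values. The largest among called genes with a symbol were Map205 at 5.21 ± 0.15 (SE), CG7173 at 5.18 ± 0.61 (SE) and CG31029 at 4.27 ± 0.54 (SE), all on the log2 scale. On the side of the falls were Drsl4 at -1.97, Cyp6a23 at -1.02, CG30187 at -0.98, Nha1, a sodium and proton exchanger, at -0.89 and Drsl5 at -0.83. This comparison and that of RluA-2 with w1118 share the w1118 samples of Exp 2. Side by side, Map205 had a log2 difference of 6.46 in RluA-2 and 5.21 in Exp 1, IFT54 4.05 and 3.04, CG3552 2.44 and -0.35, and Drsl4 3.10 and -1.97.

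**Figure D4:**
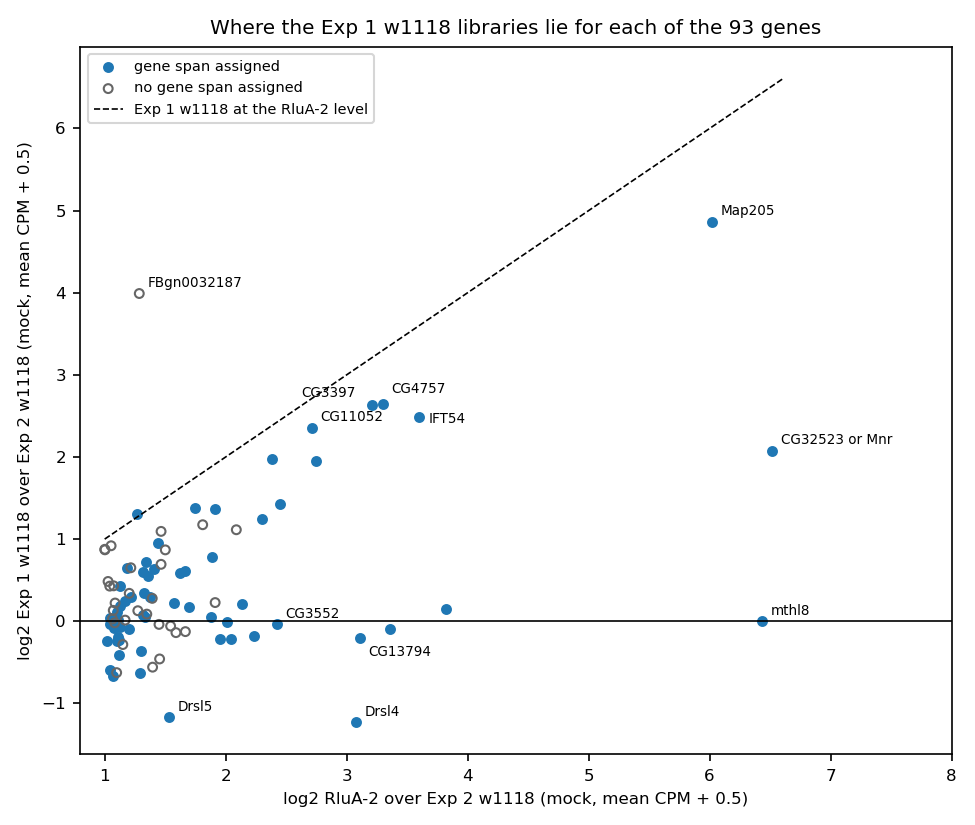
For each of the 93 genes, the log2 ratio of RluA-2 to Exp 2 w1118 (horizontal axis) and of Exp 1 w1118 to Exp 2 w1118 (vertical axis), from mean mock CPM + 0.5, both against the same w1118 libraries. On the dashed line Exp 1 would equal RluA-2 and on the solid line Exp 2 w1118, and CG43295 lies beside the former while mthl8 and CG3552 lie on or beside the latter.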

How the data were processed

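Gene counts of 22 libraries were used, 12035142 to 30701799 per library. The authors trimmed reads with Trimmomatic 0.33, removed rRNA and spike-in reads with bowtie2, aligned the rest with STAR 2.6.1a to the FlyBase release 6 genome and counted sense-strand, unique read pairs per gene with featureCounts 2.0.0, so the deposited values are raw counts. The deposited termination tables hold counts of read ends and coverage per position, and 1 was subtracted because, from their lowest values, the listed termination counts were read as the count plus 1. Mock terminations are listed only where the CMC library has one.

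The members and gene lists were chosen with earlier results of these data known. Symbols were assigned by comparing the CMC counts of an ID with the CMC terminations in each RefSeq span (release 6) on either strand. IDs with at least 40 CMC counts were tried, and a span was accepted at a ratio of 0.6 to 1.15, a distance of at most 3 and a next span at least 3 times as far. These limits were set after an earlier version and after the matches of known and member IDs had been seen, so the check on 48 known IDs was not blind. The terminations used for a name are also those shown along its span.

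Tests were edgeR 4.0.16 quasi-likelihood fits in R 4.3.3 with TMM scaling, filterByExpr and Benjamini-Hochberg adjustment over all genes, called at an adjusted p under 0.05, and were tested on simulated counts first. The edgeR test gives no SE. Each SE of a log2 difference was derived as its absolute value divided by the square root of the F statistic of the test. In comparisons between groups of samples, p-values measure the spread between samples, each a pool of heads. In the test of CMC against mock in Exp 1, with the RNA sample as a block, they measure another spread. This is the spread of the difference between CMC and mock over the 3 pairs. CMC and mock libraries of Exp 1 were paired by RNA sample, as the methods state. The headers of the Exp 1 count tables number the samples differently from the labels but give both libraries of a pair the same number. Their deviations from the group means correlated at 0.625, -0.304 and -0.181. The deleted gene was compared by exact permutation over samples. Alternatives were DESeq2 1.42.0 and its size factors, no filter, other offsets, the replicate block, CMC or mock libraries and each library left out. Named genes were the 15 members with the highest RluA-2 level, the 15 with the largest ratio, members in a list, within 500 kb of RluA-2 or next to another member, and the 3 genes on each side of the threshold. Other named genes were chosen after their values were seen, as were the run gap of 150 kb and the stricter assignment of names. Python 3.11 with pandas 2.3.3 and SciPy 1.17.1 was used.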

Additional observations from a re-analysis of the deposited data

Results flagged for a closer look

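Among the named members, 150 groups of 4 libraries were examined for a value far from the other 3, and 8 were found, where chance alone gives about 1 in 20. Cyp4d21 was high in the CMC library of w1118 replicate 1 of Exp 2, at 5.82 CPM against 0.904 to 1.47. CG10550 was high in the CMC library of w1118 replicate 4, at 46.2 CPM against 41.1 to 41.6. Odc1 was high in the CMC library of RluA-2 replicate 3, at 139.5 CPM against 101 to 107, and Cyp6a23 was low in the same library, at 47.3 CPM against 52.4 to 52.6. CG7173 was detected in only 1 of the 4 w1118 libraries of Exp 2 with each treatment, at 0.0831 CPM in mock replicate 3 and at 0.1004 CPM in CMC replicate 4. In the w1118 mock libraries of Exp 2, asRNA:CR46246 was at 0 CPM in replicate 3 against 0.182 to 0.209, and lncRNA:CR44645 was low in replicate 4, at 3.00 CPM against 3.90 to 4.08.

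Drsl5 moved with CMC in opposite directions in w1118 of the 2 experiments, with a mean log2 difference of 0.25 in Exp 1, where it was higher in all 3 pairs, and of -0.087 in Exp 2, where it was lower in all 4 pairs. It was the only such case among the 38 named members, all of which were examined for opposite directions. With 3 and 4 pairs, chance alone can give such a case among that many genes. The difference between the experiments was not tested.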

How the results depend on the processing

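The number of members depended on the offset, with 168 genes at an offset of 0.1 CPM, all 93 members among them. It was 65 at an offset of 1, 101 and 102 with the CPM scaled by DESeq2 or TMM, 88 among genes passing the filter, 94 by the CMC libraries and 93 to 96 with 1 library left out. The calls in RluA-2 ran from 88 to 93 in the mock and from 88 to 92 in the CMC libraries with 1 library left out, and with the replicate number as a block both remained at 88 of 88. The number of members tested changed along with these calls. Every tested member was called in the mock libraries. In the CMC libraries 91 of 92 were called without w1118 replicate 1 or 2, and every tested member otherwise. Same-numbered samples did not deviate together in most cases (correlations of -0.035 to 0.195 in the mock and of -0.013 to 0.297 in the CMC libraries). With CMC in Exp 1, DESeq2 called 3 members higher and 2 lower, and without the replicate block 3 were called higher and 9 lower. Leaving out 1 pair gave 0 to 10 higher and 1 to 16 lower, and the cause was not tested. Between the experiments, 6 members were called lower in the mock libraries in place of 10, the replicate block gave 31 higher and 7 lower, and leaving out 1 library gave 30 to 34 higher and 7 to 12 lower. The 80 members with Exp 1 below RluA-2 became 79 in the CMC libraries. With a stricter assignment chosen after seeing the data, 30 of the 34 named genes with 1 span kept it, and CG13794, Drsl4, CG3552 and CG15553 did not. Levels under about 1 CPM rest on few counts.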
